A study of Mus musculus with 6 samples.

Results

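The genes described here are 39 genes of double-strand break repair and interstrand crosslink (Fanconi anemia) repair, of 38293 genes listed in the gene counts. They were picked by name for their known roles, at a time when earlier results of these data were known. All 39 were found under 1 identifier each, and all 39 were among the 14396 genes that had enough reads to be tested. The smallest read count of any of them in any library was 261.

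RNA was sequenced from fetal liver cells of mouse embryos of the C57BL/6 strain at embryonic day 14.5. The 3 wt embryos are the controls; their labels give no alleles, and the study describes its controls as hnRNP L fl/fl. The 3 hnRNP L deficient embryos carry VavCre+ hnRNP L fl/fl: the Cre recombinase is driven by the Vav promoter, which is active in blood cells, and removes the loxP-flanked (fl) part of the gene for heterogeneous nuclear ribonucleoprotein L, an RNA-binding protein that regulates splicing. The labels name 1 embryo for each library, and by the study's methods the RNA came from sorted Lin- cKit+ cells, a fraction that holds hematopoietic stem and progenitor cells, although one of the labels names the tissue as whole embryo. Such a deletion need not be complete in every cell. Because bulk RNA was measured, fewer cells of a type and less RNA per cell cannot be told apart.

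Cells meet a double-strand break in steps. The Mre11-Rad50-Nbn complex binds the ends and activates the kinase Atm, while Atr, with Topbp1 and Clspn, responds to single-stranded DNA at stalled replication forks, and both kinases act through Chek1 and Chek2. Chromatin around the break is marked through Mdc1, Rnf8 and Rnf168, and the break is then either joined directly by the Ku (Xrcc5, Xrcc6), Prkdc, Dclre1c, Xrcc4 and Lig4 proteins or copied from the sister chromatid by recombination with Brca1, Palb2, Brca2, Rad51c, Xrcc2 and Xrcc3. The Fanconi proteins form a core complex that ubiquitinates Fancd2 and Fanci at crosslinks, and inherited loss of this pathway in people causes bone marrow failure, which is why it is of interest in fetal blood stem cells.

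Many repair genes are transcribed in S phase by E2F factors, so the start regions were searched for the E2F letters TTTCCCGC or TTTGGCGC on both strands. RefSeq start regions on GRCm38.p6, each running from 250 bases before to 50 bases after a start, were matched for 34 of the 39 genes, as 37 regions. The letters were in 6 of the 37 (16.2%), against 1.56% of all 32851 start regions of this length and 2 of 54 regions of the other repair genes compared below (3.7%). The 6 matches are shown with 30 bases each, the E2F letters in capitals, because they include Brca2, which had the largest fall of the 39 genes.
Brca2: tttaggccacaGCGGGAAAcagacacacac
Chek2: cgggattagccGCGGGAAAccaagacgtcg
Fancg: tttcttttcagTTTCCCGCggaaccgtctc
Mdc1: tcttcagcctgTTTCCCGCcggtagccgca
Rad51c: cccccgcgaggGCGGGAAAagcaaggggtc
Xrcc6: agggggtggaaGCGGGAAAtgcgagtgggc

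These stretches lie at chr5:150522442-150522471 (Brca2), chr5:110839820-110839849 (Chek2), chr17:35841471-35841500 (Mdc1) and chr15:82016312-82016341 (Xrcc6) on the plus strand, and at chr4:43010335-43010364 (Fancg) and chr11:87404941-87404970 (Rad51c) on the minus strand. Their first capital lies 168 bases before the start in Brca2, 152 in Chek2, 52 in Fancg, 46 in Xrcc6, 16 in Mdc1 and 5 in Rad51c. Of the other letters searched on both strands, with overlaps between motifs not removed, CCAAT was in 56.8% of the 37 regions and 37.4% of all regions, the NRF1 letters GCATGCGC in 13.5% and 2.71%, the ETS letters CCGGAAGT in 10.8% and 3.89%, and the CHR letters TTTGAA in 2.7% and 17.9%. A match is a description of the letters and not a measured binding site. Of the 6 genes with E2F letters only Brca2 passed the test, with a log2 fold change of -0.70. Chek2, Fancg, Mdc1, Rad51c and Xrcc6 did not pass, with log2 fold changes of -0.24, -0.29, -0.06, -0.33 and 0.26. Whether the 6 share a direction was not tested.

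The libraries held between 55952160 and 76157226 reads on genes. Hnrnpl itself had 552, 531 and 528 CPM in wt against 242, 288 and 270 CPM in deficient cells (CPM are read counts scaled to the library size, here with TMM factors), so transcript remained in every deficient library (log2 fold change -1.01, adjusted p = 0.00724 by edgeR). Kit, the receptor used for the sort, had 423 to 656 CPM in wt and 325 to 368 CPM in deficient libraries (log2 fold change -0.62, adjusted p = 0.0402 by edgeR). Marker genes of other cells differed between libraries. The summed level of the 10 myeloid markers was 621, 8410 and 1570 CPM across wt libraries against 257 to 849 CPM in the deficient ones, which puts wt replicate 2 apart. That of the 7 hepatocyte markers was 108 to 232 CPM against 21.0 to 71.6 CPM, and that of the 8 stem and progenitor markers 619 to 914 CPM against 426 to 468 CPM. At an adjusted p below 0.05 (edgeR), 5 of the 8 stem and progenitor, 1 of the 10 myeloid and 1 of the 7 hepatocyte markers were lower. None of those 3 lists had a marker called higher. Of all genes tested, 9.85% were called lower and 9.32% higher. None of these lists but the lymphoid one, with 1 of 8, had a marker at 0 in every library. The part of these markers in the results below was not tested.

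In hnRNP L deficient cells, 3 of the 39 repair genes fell and 0 rose at an adjusted p below 0.05 (edgeR quasi-likelihood test, Benjamini-Hochberg adjustment over all 14396 genes). Across all genes tested, 9.85% were called lower and 9.32% higher. With DESeq2 1 of the 39 was called higher, against 9.25% of all genes in that fit, and with limma-voom 2, against 17.9%. At an unadjusted p below 0.05, 9 of the 39 passed, 2 of them with a positive value, against 37.6% of all genes tested and 17.6% with a positive value. The 39 genes had a median log2 fold change of -0.01, beside -0.03 over all genes tested. A fitted change above 2-fold was found for 0 of the 39, against 2233 of the 14396 genes tested. For 31 of the 39 (79.5%) the 95% interval of the change lay within 1.5-fold in either direction, against 40.7% of all genes tested. The share was 74.2% for the other repair genes and 85.0% for the 20 proliferation and replication genes, both compared below. Of the 39, 36 had a wt mean above 10 CPM, while the genes tested include many at lower levels. The part of expression level in these shares was not tested. All 3 deficient libraries lay below all 3 wt libraries for 10 genes and above them for 5, and overlapped for 24. Over all genes, 22.7% lay below and 22.7% above. An exact permutation test of 3 against 3 libraries cannot go below a two-sided p of 0.1, so no single-gene permutation p is given.

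**Figure D1:**
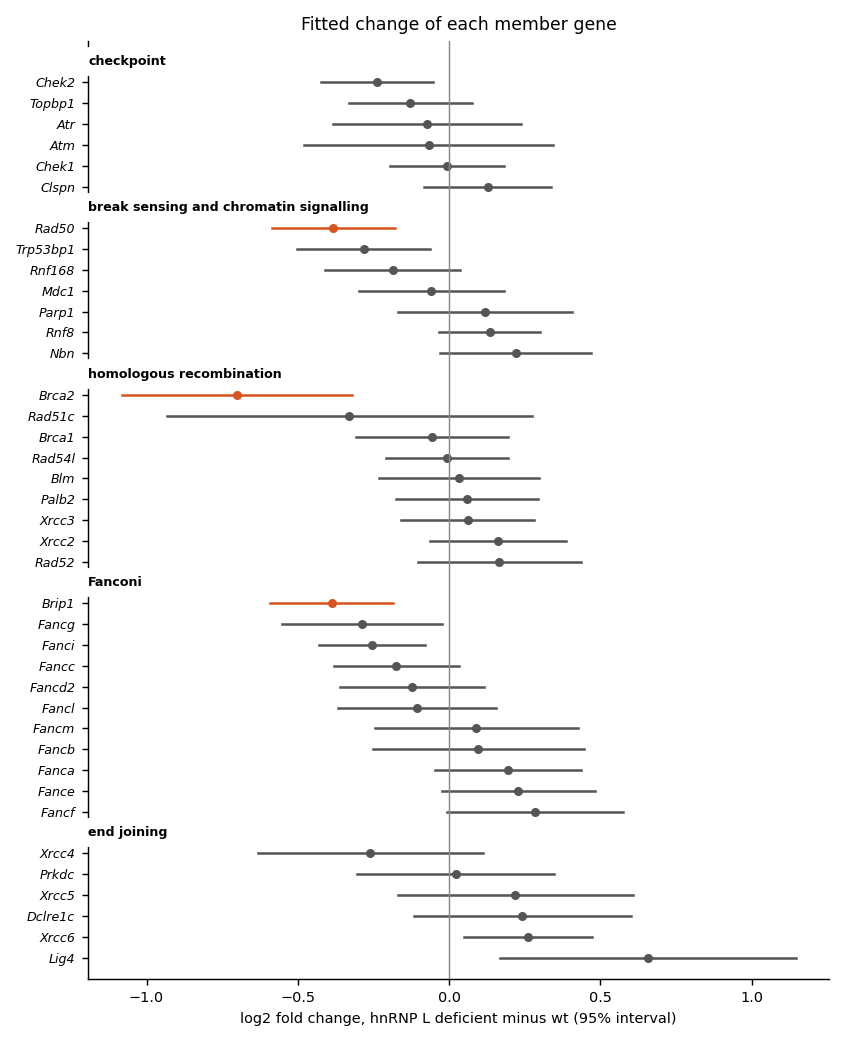
Fitted log2 fold change (hnRNP L deficient minus wt) of the 39 repair genes by role, with 95% intervals from the edgeR fit; orange marks genes at an adjusted p below 0.05. Brca2, Rad50 and Brip1 are the called genes, and most other intervals cross 0.

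Brca2, a mediator of homologous recombination, lies at chr5:150522630-150570329 on the plus strand (GRCm38, GENCODE). Its level was 144, 91.3 and 132 CPM in wt, against 78.7, 74.2 and 73.0 CPM in deficient cells. Each deficient library was below each wt library, and wt replicate 2 was the wt library nearest to them. The log2 fold change was -0.70 ± 0.16 (SE, adjusted p = 0.0297 by edgeR), and the deficient mean was 61.5% of the wt mean.

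Rad50, the long coiled-coil subunit that tethers broken ends, lies at chr11:53649519-53707319 on the minus strand. It had 130, 107 and 125 CPM in wt and 94.2, 93.2 and 90.2 CPM in deficient cells. The groups did not overlap, and the deficient libraries were within a few CPM of each other. The log2 fold change was -0.38 ± 0.09 (SE, adjusted p = 0.0282 by edgeR).

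Brip1 (Fancj), a helicase that binds Brca1, lies at chr11:86058138-86201193 on the minus strand. Its levels were 40.1, 39 and 37.2 CPM in wt and 28.0, 32.0 and 28.9 CPM in deficient cells. Here wt replicate 2 did not stand apart, and the groups did not overlap. The log2 fold change was -0.39 ± 0.09 (SE, adjusted p = 0.0276 by edgeR).

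These 3 calls rested on nearly all libraries. They held without wt replicate 1 and without wt replicate 2. Without wt replicate 3, or without deficient replicate 1, 2 or 3, none of the 39 genes passed (10, 6, 5 and 4 had an unadjusted p below 0.05 in these edgeR fits, against 33.7%, 26.6%, 27.0% and 24.9% of all genes), and the adjusted p over the 6 fits with a library left out reached 0.126 for Brca2, 0.135 for Rad50 and 0.134 for Brip1. In those 4 fits the calls over all genes also fell, to between 5 and 17 genes, while the fold changes kept their direction: over all 6 fits they ran from -0.87 to -0.56 for Brca2, from -0.46 to -0.32 for Rad50 and from -0.43 to -0.34 for Brip1. The number of genes called among the 39 was 10 without wt replicate 1 (5 higher and 5 lower, against 15.7% and 16.8% of all genes in that fit) and 6, all lower, without wt replicate 2 (against 12.7% of all genes). The genes that gained a call were Fancg and Trp53bp1 (lower) and Fancb, Lig4, Nbn, Xrcc5 and Xrcc6 (higher) without wt replicate 1, and Chek2, Fancd2 and Fanci (lower) without wt replicate 2.

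**Figure D2:**
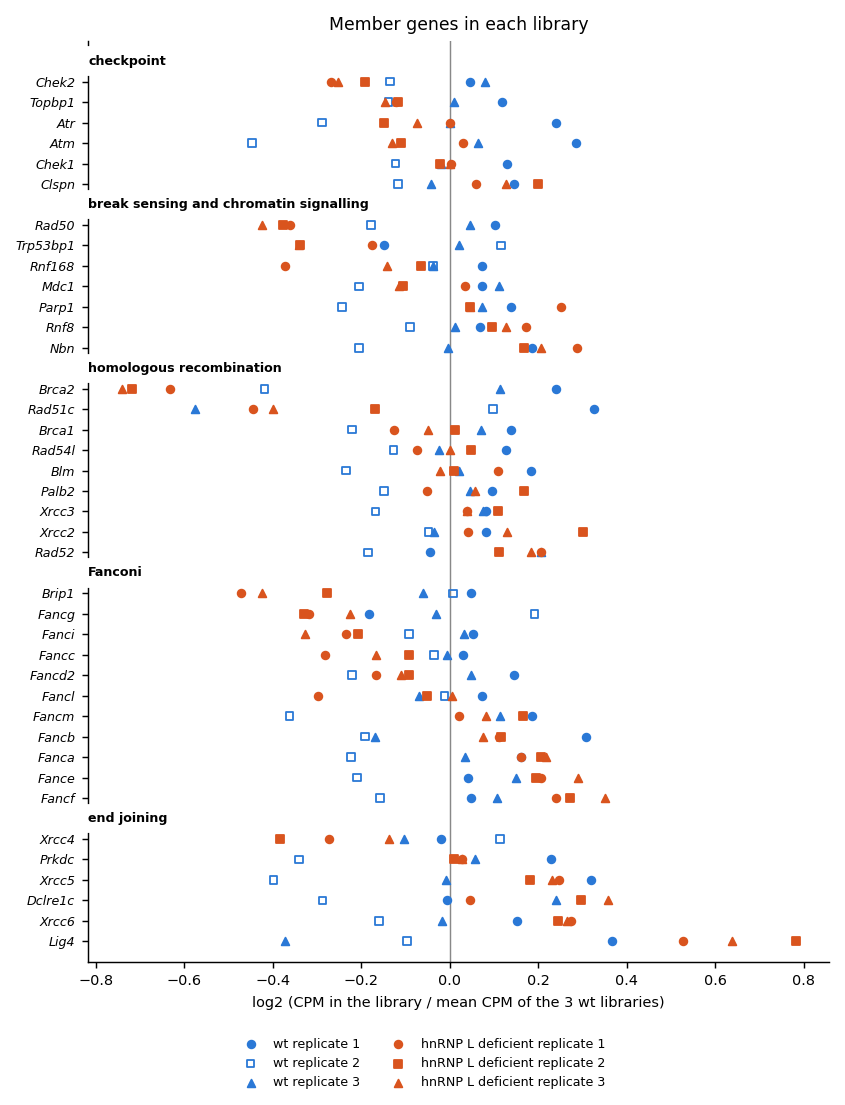
Level of each repair gene in each library as log2 of its CPM over the mean CPM of the 3 wt libraries (x axis), by role; blue marks wt and orange hnRNP L deficient, with wt replicate 2 as open squares. For Brca2, Rad50 and Brip1 all deficient points lie left of all wt points, and for 31 of the 39 genes wt replicate 2 is the lowest wt library.

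Among the 6 checkpoint genes none passed the test, and their log2 fold changes lay between -0.24 and 0.13. Topbp1, the activator of Atr and the most abundant of them in CPM, had 487, 408 and 452 CPM in wt and 413, 414 and 406 CPM in deficient cells, and the groups overlapped. The effector kinase Chek2 had 77.7, 68.6 and 79.6 CPM in wt and 62.5, 65.9 and 63.2 CPM in deficient cells. It was the only checkpoint gene without overlap, and its log2 fold change of -0.24 missed the threshold (adjusted p = 0.0735 by edgeR), with an adjusted p between 0.011 and 0.239 over all settings tried. The other effector kinase, Chek1, had a log2 fold change of -0.01 with a 95% interval from -0.19 to 0.18. The intervals of Atm (-0.48 to 0.34) and Atr (-0.38 to 0.24), the kinases at the head of the pathways, were wider. For all 6 the interval lay within 1.5-fold in either direction.

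Of the 7 genes of break sensing and chromatin signalling, Rad50 fell and 6 did not pass. Nbn, which joins Rad50 in the same complex, had 81.5, 62.1 and 71.4 CPM in wt and 87.4, 80.4 and 82.6 CPM in deficient cells. The groups overlapped and the log2 fold change was 0.22 (adjusted p = 0.175 by edgeR). Mre11a, the remaining subunit, is listed with the other repair genes below and had a log2 fold change of 0.07 with overlap (adjusted p = 0.706 by edgeR). The differences between the changes of Rad50, Nbn and Mre11a were not tested. Parp1, which senses strand breaks by making poly(ADP-ribose), had 697, 535 and 666 CPM in wt and 754, 654 and 653 CPM in deficient cells, which overlapped.

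Trp53bp1, which favours end joining over resection, had 60.2, 72.3 and 67.7 CPM in wt and 59.1, 52.8 and 52.7 CPM in deficient cells, a log2 fold change of -0.28 (adjusted p = 0.0713 by edgeR). Here wt replicate 2 was the highest wt library. The ubiquitin ligases Rnf8 and Rnf168 had values of 0.13 and -0.19, and the scaffold Mdc1 of -0.06. Of Trp53bp1, 15% of the exonic length overlaps Tubgcp4 on the other strand, and of Rnf8, 13.2% overlaps another gene on the same strand. Whether the counting used strand is not given in the sources used here.

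Of the 9 homologous recombination genes Brca2 fell and 8 did not pass. Blm, the helicase that dissolves recombination intermediates and the most abundant of the 9 in CPM, had 159, 119 and 142 CPM in wt and 151, 141 and 138 CPM in deficient cells. These groups overlapped, with a log2 fold change of 0.03. Brca1, which promotes end resection, and Palb2, which links it to Brca2, had log2 fold changes of -0.06 (95% interval -0.31 to 0.19) and 0.06 (-0.17 to 0.29). Their intervals did not reach the fitted -0.70 of Brca2, whose own interval ran from -1.08 to -0.32. The differences between these changes were not tested. The recombination factors Xrcc2 and Xrcc3 had values of 0.16 and 0.06, Rad52 of 0.17 and the motor protein Rad54l of -0.01. Rad51c, the lowest of the 39 per length, had 6.91, 5.90 and 3.70 CPM in wt against 4.05, 4.90 and 4.18 CPM, and its interval was wide (-0.93 to 0.27).

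Of the 11 Fanconi genes Brip1 fell and 10 did not pass. Fancd2, the central protein that is ubiquitinated at crosslinks, had 98.7, 76.6 and 92.4 CPM in wt and 79.6, 83.8 and 82.7 CPM in deficient cells, which overlapped. Its partner Fanci had 61.8, 55.9 and 61.0 CPM in wt and 50.7, 51.6 and 47.5 CPM in deficient cells. These did not overlap, and the log2 fold change of -0.25 lay just outside the threshold (adjusted p = 0.0534 by edgeR); Polg on the other strand covers 16% of its exonic length.

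The 7 core complex genes were divided. Fancg (log2 fold change -0.29, adjusted p = 0.109 by edgeR) and Fancc (-0.17) lay below all wt libraries, Fance (0.23) and Fancf (0.28) lay above them, and Fanca (0.19), Fancb (0.10) and Fancl (-0.11) overlapped, and none of the 7 passed. Fancm, the translocase that brings the core complex to DNA, had a value of 0.09 with overlap.

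The 6 end joining genes had the highest median log2 fold change of the role groups, 0.23, and none passed the test. Without wt replicate 2 their log2 fold changes were 0.61 (Lig4), 0.19 (Xrcc6), 0.12 (Dclre1c), 0.06 (Xrcc5), -0.12 (Prkdc) and -0.20 (Xrcc4). The medians of the role groups were not computed in that fit. Xrcc6, the smaller Ku subunit and the most abundant of them in CPM, had 181, 146 and 161 CPM in wt and 197, 193 and 196 CPM in deficient cells. The groups did not overlap, and the log2 fold change was 0.26 (adjusted p = 0.0793 by edgeR). Xrcc5, the other Ku subunit, had 95.2, 57.9 and 75.9 CPM against 90.6, 86.5 and 89.5 CPM, with overlap.

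Lig4, the ligase that seals the joined ends, had 10.2, 7.40 and 6.11 CPM in wt and 11.4, 13.6 and 12.3 CPM in deficient cells. It had the largest positive value of the 39, 0.66 ± 0.21 (SE, adjusted p = 0.0652 by edgeR). It passed with DESeq2, with limma-voom and without wt replicate 1, with an adjusted p between 0.00493 and 0.191 over all settings tried. Xrcc4, its partner, had a value of -0.26, with all deficient libraries below all wt libraries, and the kinase subunit Prkdc and the nuclease Dclre1c had values of 0.02 and 0.24.

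Per kb of exonic length, levels among the 39 genes in wt spanned from 1.26 ± 0.38 CPM per kb (SD, n = 3) for Rad51c to 120.0 ± 16.3 for Parp1. Next below Parp1 were Topbp1 (40 ± 3.5), Xrcc6 (36.4 ± 3.9) and Xrcc5 (29.9 ± 7.3), whose spreads overlap. Lig4 (1.52 ± 0.40) and Xrcc4 (1.55 ± 0.12) were next above Rad51c and did not differ from it or each other beyond their spread, so end joining genes lay near the top and near the bottom of this order. Brca2 moved from 8.97 ± 2.03 to 5.52 ± 0.22 CPM per kb, beside 5.15 ± 0.45 in wt for its partner Palb2. Exonic length here joins all annotated exons of a gene, so it can exceed the length of its transcripts. Differences between genes in this order therefore also depend on the annotation.

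**Figure D3:**
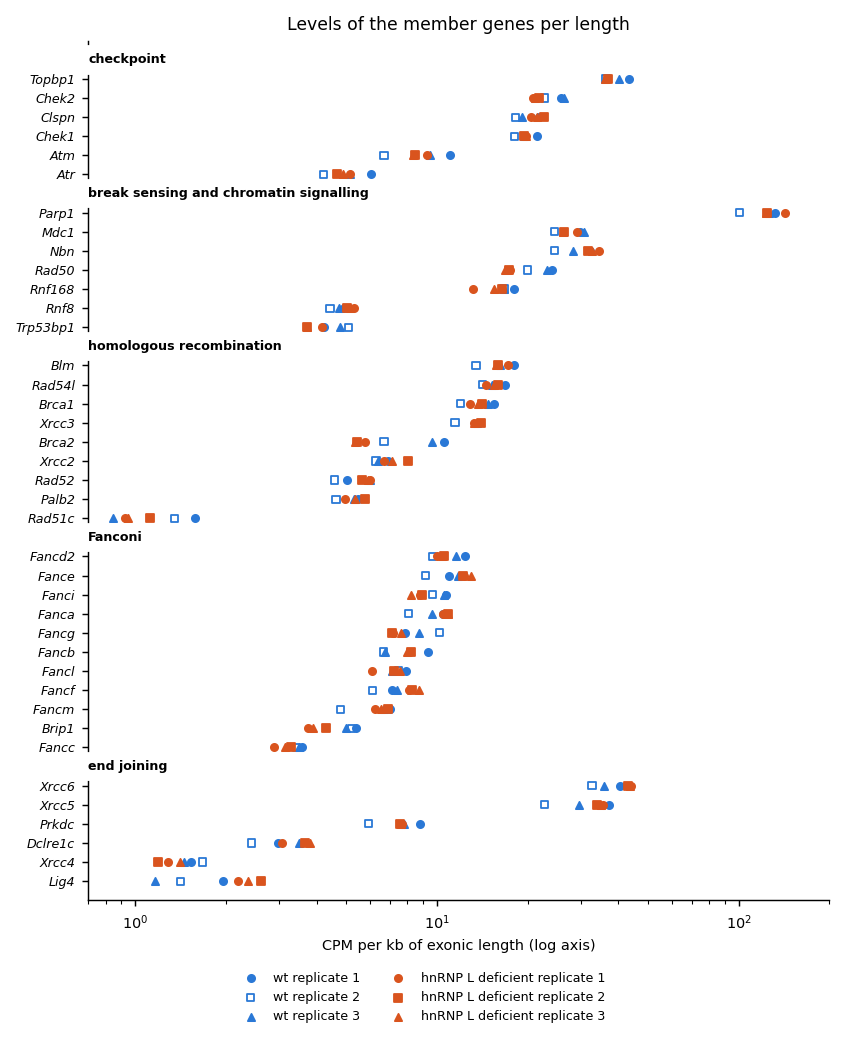
CPM per kb of exonic length (log axis) of each repair gene in each library, by role; blue marks wt, with wt replicate 2 as open squares, and orange hnRNP L deficient. Parp1 is highest and Rad51c, Lig4 and Xrcc4 are lowest.

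Variation among the wt libraries was larger than among the deficient ones. The median coefficient of variation of the 39 genes was 11.6% in wt and 4.52% in deficient cells, and 33 of the 39 varied less in deficient cells; over all genes tested the medians were 16.2% and 6.53%. In wt, replicate 2 was the lowest library for 31 of the 39 genes (79.5%), against 35.9% of all genes tested. Its level was lower than the mean of the other wt libraries by a median log2 value of -0.24 over the 39 genes and -0.04 over genes above 10 CPM. Across all genes above 10 CPM this value went from 0.06 in the shortest class of exonic length to -0.15 in the longest, and the 39 genes had a median exonic length of 5774 bases against 4715.

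Exon bin counts, which split genes into non-overlapping pieces of exons, were used in 5 libraries, since none was analysed here for deficient replicate 1. In 33 of the 39 genes, those with at least 10 bins and 2000 mean reads in a unit of 1 gene, reads on the third of bins nearest the 5′ end were divided by those on the third nearest the 3′ end. The median ratio was 0.558, 0.349 and 0.535 across wt libraries, against 0.501 and 0.519 across deficient ones. Wt replicate 2 was the lowest wt library for 31 of the 33 genes, and for 83.8% of the 5471 genes of this size. Brca2 had ratios of 0.466, 0.14 and 0.411 in wt and 0.393 and 0.376 in deficient cells. The part of this coverage difference in the gene-level results was not tested.

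**Figure D4:**
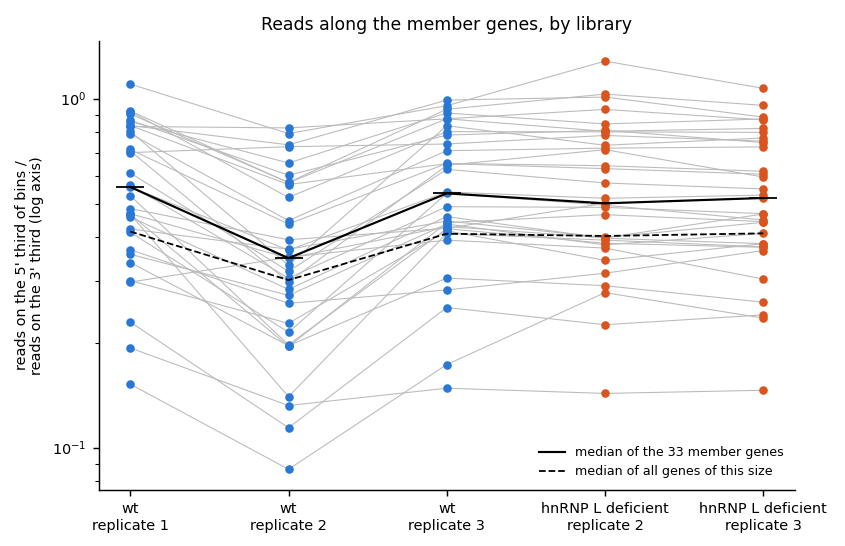
Ratio of reads on the third of exon bins nearest the 5′ end to reads on the third nearest the 3′ end (log axis) in 33 repair genes, one grey line per gene, in the 5 libraries with exon bins; the solid line joins their medians and the dashed line the medians of all 5471 genes of this size. The medians are lowest in wt replicate 2 (0.349 for the repair genes).

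Counted on the third nearest the 3′ end only, where wt replicate 2 was the highest wt library for Brca2, Rad50 and Brip1, the called genes had the same direction. Brca2 had 29.1, 34.4 and 27.8 CPM in wt and 17.1 and 17.1 CPM in deficient cells, a log2 ratio of means of -0.84 beside -0.75 on all bins. Rad50 had 51.4, 57.2 and 49.2 CPM against 36.8 and 34.6 CPM, a log2 ratio of -0.56 beside -0.45. Brip1 had 20.2, 23.1 and 17.2 CPM against 14.7 and 13.8 CPM, a log2 ratio of -0.50 beside -0.29 on all bins. This count was chosen after seeing the data and carries no test.

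On the bins nearest the 3′ end, 12 of the 33 genes had both deficient libraries below all wt libraries and 4 had them above, against 26.3% and 25.1% of all genes of this size. On all bins the counts were 10 and 4, against 23.9% and 30.6%. The genes that lay below on the third nearest the 3′ end and overlapped on all bins were Atm, Atr, Blm, Fancd2 and Mdc1. Rnf168, Fancc and Fancg went the other way, below on all bins and overlapping on the third nearest the 3′ end. The median log2 ratio of the 33 genes was -0.13 on that stretch and -0.05 on all bins, beside -0.03 and 0.02 for all genes of this size. An exact test of 3 against 2 libraries cannot go below a two-sided p of 0.2.

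Along Brca2 the lower level was seen in every bin with at least 100 mean wt reads: in these 26 bins the mean of the 2 deficient libraries was 50.7% to 76.0% of the wt mean, with a median of 59.9%. In the 29 such bins of Rad50 it was 56.8% to 82.8%, with a median of 73.3%. Brip1 was less even: its 16 bins spanned 59.7% to 116%, with a median of 101% in the 5 bins nearer the 5′ end and 81.4% in the 11 bins nearer the 3′ end. Its ratio of 5′ to 3′ reads was 0.152, 0.0867 and 0.173 in wt and 0.278 and 0.235 in deficient cells, with both deficient libraries above all wt libraries, as in 4 of the 33 genes and 15.1% of genes of this size.

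**Figure D5:**
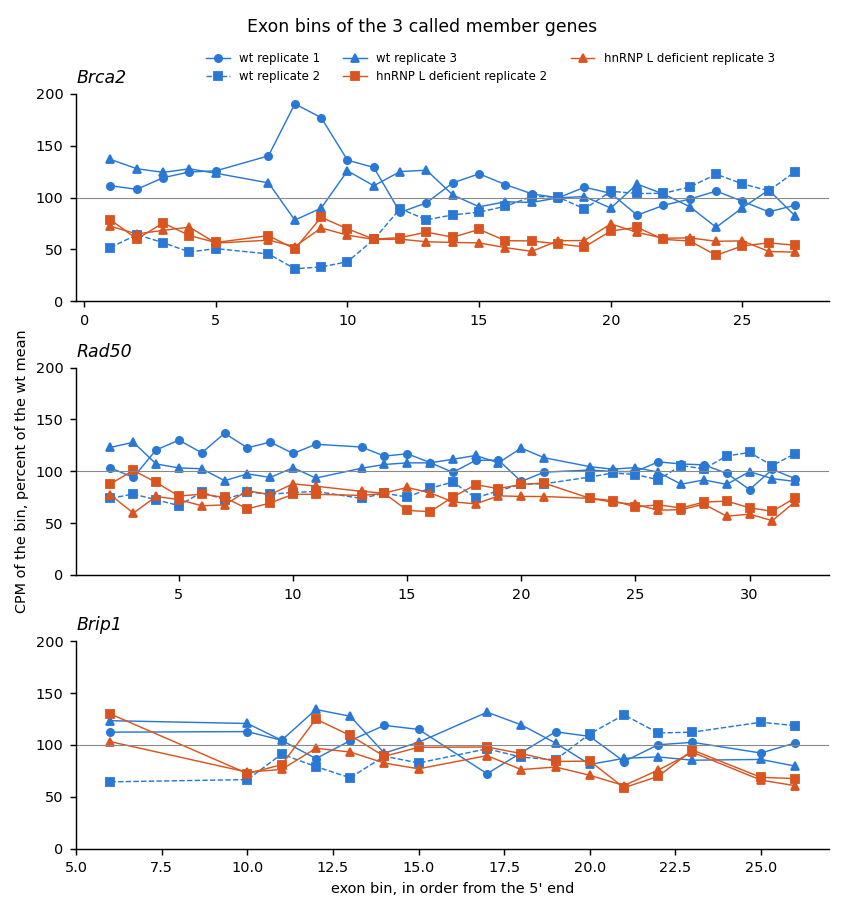
Exon bins of Brca2, Rad50 and Brip1 in order from the 5′ end (x axis), with the CPM of each bin as percent of the mean of the 3 wt libraries (y axis), for bins with at least 100 mean wt reads; blue marks wt, dashed for replicate 2, and orange hnRNP L deficient. In Brca2 the mean of the deficient libraries stays between 50.7% and 76.0% of wt, while wt replicate 2 is low at the 5′ end and not at the 3′ end.

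Usage of single exon bins, relative to the other bins of the same unit, was tested in 1171 bins (edgeR, 3 wt against 2 deficient libraries). Fancf had no bin among them, and 70 of the 1171 lay in a unit that joins Rnf8 with 2 other genes. None of the 1171 passed an adjusted p of 0.05, and none passed an unadjusted p of 0.01 with more than a 2-fold change. An unadjusted p below 0.05 in the edgeR fit was found for 8 of the 1171, and for 6 of the 1101 in units of 1 gene. Of all 176996 bins tested, 0.0288% passed the first threshold and 0.249% the second. As shares, an unadjusted p below 0.05 in the edgeR fit was reached by 1.03% of all bins, 0.683% of the 1171 and 0.545% of the 1101. With limma 1 bin, in the unit that joins Rnf8 with 2 other genes, passed an adjusted p of 0.05, against 218 bins in all. The estimated changes in usage ran from -1.55 to 1.85 on the log2 scale.

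The smallest p, 0.0112, was in bin 82 of the unit that joins Rnf8 with 2 other genes, so this bin cannot be given to Rnf8 alone. It had 308, 442 and 453 reads in wt and 286 and 335 reads in deficient cells, a log2 change in usage of -0.77 (adjusted p = 1 by edgeR). In single-gene units the smallest was bin 10 of Fancc, which rests on 0, 1 and 16 reads in wt and 12 and 28 in deficient cells. Bin 24 of Brip1, toward its 5′ end, had 43, 16 and 47 reads in wt and 85 and 67 in deficient cells, a log2 change of 1.23 (unadjusted p = 0.0191 in the edgeR fit, adjusted p = 1), with the fewest reads in wt replicate 2. Brca2 had 27 bins tested, with a smallest unadjusted p of 0.416 in the edgeR fit and changes between -0.23 and 0.36.

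The other repair genes were compared to see how the 39 stand beside genes of related work. This list of 66 genes holds further checkpoint, crosslink, end-processing and recombination factors, and all were tested. Of these, 7 rose, 3 fell and 56 did not pass, with a median log2 fold change of 0.08. Over all 14396 genes tested, 9.32% were called higher and 9.85% lower, with a median of -0.03. The list and the 39 genes were not tested against each other.

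Those with the largest rise belong partly to the Fanconi pathway. Further genes of crosslink repair on the list did not pass. Among them Ube2t, Wdr48, Faap20, Usp1, Fan1, Ercc1 and Ercc4 had log2 fold changes between -0.04 and 0.13. Faap24, which binds DNA with Fancm, had 51.3, 40.3 and 47.1 CPM in wt and 78.7, 72.2 and 73.4 CPM in deficient cells (a log2 fold change of 0.69, adjusted p = 0.0139 by edgeR). Slx4, the scaffold of crosslink nucleases, had 68.9, 58.4 and 72.6 CPM against 88.9, 100 and 99.6 CPM (0.53, adjusted p = 0.02 by edgeR). In both the groups did not overlap, while Fancm itself did not pass.

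Mad2l2, a subunit of translesion polymerase zeta and of shieldin, had a log2 fold change of 0.44, Rad1, of the clamp that activates Atr with Topbp1, of 0.41, and Faap100, of the Fanconi core complex, of 0.35. Each of these 3 passed with an edgeR adjusted p of 0.03, 0.0433 and 0.0448. All 3 had every deficient library above every wt library.

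H2afx, the histone whose phosphorylated form marks breaks and binds Mdc1, had 113, 198 and 178 CPM in wt and 67.8, 70.2 and 71.0 CPM in deficient cells, a log2 fold change of -1.22 (adjusted p = 0.0154 by edgeR). It was one of 2 of the 66 genes with a fitted change above 2-fold, against 2233 of the 14396 genes tested. The other of the 2, Parp3, did not pass (adjusted p = 0.165 by edgeR). Aplf, an end joining histone chaperone, fell by 0.45 and Rad54b, a relative of Rad54l, fell by 0.36 on the log2 scale. As with the 39 genes, none of the 66 passed without wt replicate 3 or without any 1 of the deficient libraries, while 12 to 21 of them had an unadjusted p below 0.05 in those edgeR fits, against 24.9% to 33.7% of all genes; without wt replicate 1, 17 were called higher and 4 lower, against 15.7% and 16.8% of all genes. Since many of these genes are used in S phase, 20 proliferation and replication genes were listed beside them. In the edgeR fit 3 of the 20 rose and 0 fell, against 9.32% and 9.85% of all genes tested. In the same fit 8 of the 20 had an unadjusted p below 0.05, all 8 with a positive value. Of all genes tested, 37.6% had such a p and 17.6% had it with a positive value. Their median log2 fold change was 0.06. Their summed level was 7770 to 9050 CPM in wt and 8720 to 8860 CPM in deficient libraries.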

How the data were processed

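Lin- cKit+ fetal liver cells of 3 wt and 3 hnRNP L deficient embryos were sequenced from stranded poly(A) libraries in paired ends. Per the submitters' processing notes and the study's methods, the authors aligned reads with TopHat2 (2.0.10) and SAMtools to GRCm38 (Ensembl) and deposited raw read counts per gene (HTSeq) and per exon bin (DEXSeq scripts). The annotation release and strand option are not given in the sources used here. Reads not aligned uniquely were 39.8% to 44.7% of the total and were left out, as were other rows naming no gene: 5.87% to 8.37% with no feature and 0.245% to 0.275% ambiguous. Exon bins of deficient replicate 1 were not analysed here.

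Gene counts were fitted for all genes with edgeR (4.0.16, R 4.3.3): filterByExpr, TMM factors, robust quasi-likelihood test, Benjamini-Hochberg adjustment, threshold 0.05. A log2 fold change is deficient minus wt. Exon bins with at least 10 mean reads were tested with edgeR's diffSpliceDGE. Symbols, strands and exonic lengths came from GENCODE for GRCm38, where 94.9% of identifiers matched. Alternatives used limma (3.58.1) and DESeq2 (1.42.0). The steps were run on simulated counts with changes of 2-fold or more and less spread than in these libraries. That run does not bear on smaller changes. Every called gene and the most abundant gene of each role group are given by library, with the 5 largest rises and falls among called other repair genes, and exon bins by threshold or smallest p; further genes were named after their values were seen. The 39 genes and the lists were chosen with earlier results of these data known. The embryo numbers in the labels share their first part between wt replicate 1 and deficient replicate 1, and between deficient replicates 2 and 3. The labels do not say whether this marks a litter, and it was not used in a fit. Whether sorts were shared is not stated, so p-values measure the spread between these libraries.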

Additional observations from a re-analysis of the deposited data

How the results depend on the processing

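Each of the 39 genes had at least 261 reads in every library. No paired analysis was possible because the labels number embryos and not replicates: the replicate numbers used here follow the listing order and pair nothing, and the first part of an embryo number, which the labels do not explain, is shared between the groups by 1 pair of libraries only. The 3 falls of Brca2, Rad50 and Brip1 held under median-of-ratios factors, total counts only, DESeq2, limma-voom with sample weights, no robust estimation and both other filters. With a library left out, the genes called lower among the 39 numbered 0 to 6 and those called higher 0 to 5, and among the other repair genes those called higher numbered 0 to 17 and lower 0 to 5. Over all genes these fits called 5 to 4791. With total counts only, 6 of the 39 were called lower, adding Chek2, Fanci and Trp53bp1. Among the other repair genes 4 were called higher and 5 lower. Of all genes in that fit, 7.4% were called higher and 12.2% lower. With DESeq2 1 of the 39 was called higher (Lig4). With limma-voom 2 of the 39 were called higher (Lig4 and Xrcc6; 17.9% of all genes) and 6 lower (adding Chek2, Fanci and Trp53bp1; 19.3%), and 16 other repair genes higher and 7 lower. With at least 1 CPM in 3 libraries 5 of the 39 were called lower (adding Chek2 and Fanci; 12.1%). Total counts moved the median log2 fold change of all genes from -0.03 to -0.10, and that of the 39 to -0.08. With a library left out, the median of the 39 ran from -0.072 to 0.105. The cause of these changes was not tested.

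One exon bin of the 39 genes passed with limma, in the merged unit with Rnf8, and 1 without wt replicate 2, in Dclre1c; leaving out a library gave 0 to 1. Over all bins 3 to 158 passed with a library left out and 218 with limma, against 51 in the main fit.

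Some of the 39 genes changed sign, none with an adjusted p below 0.05; Rad51c moved furthest, from -0.33. With a library left out, log2 fold changes ran from -0.247 to 0.105 for Atm, -0.198 to 0.0657 for Atr, -0.0622 to 0.068 for Chek1, -0.151 to 0.0032 for Mdc1, -0.158 to 0.0216 for Brca1, -0.009 to 0.117 for Palb2, -0.0651 to 0.0674 for Rad54l, -0.0146 to 0.108 for Xrcc3, -0.0721 to 0.137 for Blm, -0.0605 to 0.198 for Fancm and -0.122 to 0.158 for Prkdc. With total counts only the sign changed for Palb2 (-0.0087), Xrcc3 (-0.0078), Blm (-0.0361) and Prkdc (-0.0457), and with limma-voom for Rad51c (0.0245), Rad54l (0.014), Blm (-0.0195) and Prkdc (-0.0208). Chek1 and Rad54l also changed sign with median-of-ratios factors (0.0036 and 0.0009), DESeq2 (0.0072 and 0.0046) and no filter beyond 1 read (0.0176 and 0.0151).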
